A study of Mus musculus with 6 samples.

Results

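The unfolded protein and ER stress response was followed through 33 genes in the mouse retina. They comprise the stress sensors and their transcription factors, the chaperones of the endoplasmic reticulum (ER), the machinery of ER-associated degradation, and targets of the transcription factor ATF4. Members were matched by exact gene symbol, and all 33 of the 33 named symbols were found among the 24346 listed per library. RNA came from whole retinas of Unc119-/- mice (3 libraries) and of Unc119+/+ mice (3 libraries), and the labels name no further allele, treatment, age, sex, strain background or date. The labels do not say that libraries of 1 genotype came from separate animals, so p-values measure only the spread between these libraries, which may be technical. UNC119 is a carrier of lipid-modified proteins, among them rod transducin, and the comparison asks which retinal mRNAs differ when its gene is disrupted.

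Secretory and membrane proteins fold in the ER with the help of chaperones, of which BiP (encoded by Hspa5) is the best known. When unfolded protein accumulates, the sensors IRE1 (Ern1), PERK (Eif2ak3) and ATF6 (Atf6) are activated: IRE1 splices Xbp1 mRNA, PERK phosphorylates eIF2 alpha and thereby favours translation of Atf4 mRNA, and ATF6 is cleaved into a transcription factor. Their targets are chaperones, degradation factors and, through ATF4, amino acid and stress genes. Photoreceptors make large amounts of opsin in the ER, and chronic ER stress is known from rods with misfolded opsin. Values per gene measure neither Xbp1 splicing, nor eIF2 alpha phosphorylation, nor ATF6 cleavage, nor any protein.

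Short stress elements are known to control many members, and the stretches of their promoters that match such elements are shown. These are matches of letters, and neither binding to them nor their activity was measured here. The ER stress response element, ERSE, is bound by ATF6 with NF-Y and was searched as CCAAT, then 9 bases of any kind, then CCACG. The shorter ERSE-II was searched as ATTGG, then 1 base of any kind, then CCACG. The ATF4 element, CARE, was searched as TGATGNAA, and the XBP1 element, UPRE, as TGACGTGG. Both strands were searched from 250 bases before to 50 bases after each RefSeq transcript start (build GRCm38.p6), and no matches of different motifs overlapped in the member promoters. RefSeq promoters were matched for 29 of the 33 members, those of Atf6, Derl1, Hyou1 and Manf not being in the table. ERSE was found in 9 of these 29 genes (31.0%), against 0.119% of all 32851 promoters searched. For each motif the member share counts genes while the share over all counts promoters, so the units differ. ERSE-II was found in 2 genes (6.90%, against 0.0365%), CARE in 4 (13.8%, against 3.97%) and UPRE in none (against 0.676%), which says only that these letters are not in this window. The stretches run 5′ to 3′ on the strand of the gene, with the matches in capitals.
Hspa5, chr2:34772020-34772048, plus strand: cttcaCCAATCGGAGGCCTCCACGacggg
Hsp90b1, chr10:86705518-86705671, minus strand, with an ERSE in either direction: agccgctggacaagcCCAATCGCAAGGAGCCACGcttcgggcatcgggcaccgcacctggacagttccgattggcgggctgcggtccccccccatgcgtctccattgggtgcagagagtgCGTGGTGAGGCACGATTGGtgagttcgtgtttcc
Calr, chr8:84847060-84847108, minus strand: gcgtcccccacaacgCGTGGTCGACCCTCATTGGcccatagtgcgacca
Canx, chr11:50325785-50325833, minus strand: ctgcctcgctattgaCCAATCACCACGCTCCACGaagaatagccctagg
Pdia6, chr12:17266476-17266524, plus strand: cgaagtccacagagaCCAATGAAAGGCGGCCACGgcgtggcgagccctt
Creld2, chr15:88819505-88819553, plus strand: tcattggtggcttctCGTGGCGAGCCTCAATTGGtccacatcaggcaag
Syvn1, chr19:6046517-6046565, plus strand: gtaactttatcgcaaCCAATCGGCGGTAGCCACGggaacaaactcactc
Herpud1, chr8:94386302-94386402, plus strand, with CARE then ERSE-II: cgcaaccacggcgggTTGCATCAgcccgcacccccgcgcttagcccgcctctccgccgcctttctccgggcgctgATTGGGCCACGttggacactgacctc
Asns, chr6:7693220-7693237, minus strand, with CARE: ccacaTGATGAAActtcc
Chac1, chr2:119351034-119351071, plus strand, with CARE: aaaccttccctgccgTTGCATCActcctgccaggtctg

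The remaining ERSE matches were in the promoters of Dnajc3 and Derl3, and those of ERSE-II in Dnajb11 and of CARE in Trib3 lay just after the RefSeq start. In Hspa5 the match runs from 65 to 47 bases before the RefSeq start, and in Herpud1 the ERSE-II match runs from 52 to 42 bases before it. GENCODE places the starts of Hspa5 and Asns further upstream than RefSeq. By GENCODE the Hspa5 ERSE (chr2:34772025-34772043) and the Asns CARE (chr6:7693225-7693232) therefore lie inside these genes.

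**Figure D1:**
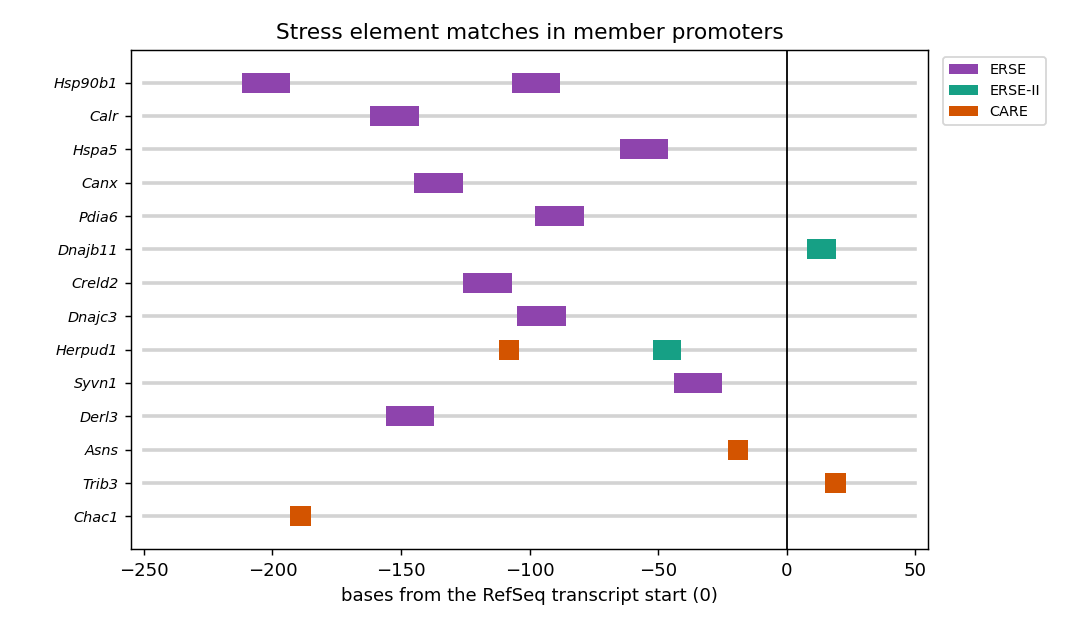
Position of ERSE (purple), ERSE-II (green) and CARE (orange) matches along the promoters of the 14 members with a match, in bases from the RefSeq transcript start; the grey line is the window searched. ERSE matches lie before the RefSeq start in each of the 9 genes that hold one, and Hsp90b1 holds a pair of them.

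Unc119 itself was measured first as a check of the labels. It stood at 510.2, 460 and 449 FPKM (fragments scaled to transcript length and to the mapped fragments of the library) in Unc119-/- libraries 1 to 3, against 1191, 1187 and 1206 FPKM in Unc119+/+ libraries 1 to 3. The Unc119-/- mean was 39.6% of the Unc119+/+ mean (log2 change −1.34, SE 0.06, limma adjusted p = 6.6e-05). Transcript from the locus (chr11:78343482-78349164, GRCm38) was thus lower in each Unc119-/- library but still measured. Relative depth, read from genes of low FPKM, ran from 0.931 to 0.964 in Unc119-/- libraries and from 0.763 to 1 in Unc119+/+ libraries, with Unc119+/+ library 2 set to 1. The absolute depth is unknown. The rod list (10 of 10 markers listed) summed to 27231 to 28811 FPKM in Unc119-/- and 26785 to 29199 FPKM in Unc119+/+ libraries, so these defining markers of retina were abundant in each library. Lens RNA differed widely: the 18 lens markers summed to 286, 708 and 11999 FPKM in Unc119-/- libraries 1 to 3, against 154, 837 and 0.795 FPKM in Unc119+/+ libraries 1 to 3, with 18 of 18 above 0 in log2 change, 0 called, and none at 0 in all libraries of a genotype. Their part in any value below was not tested beyond the fits named beside it. Reactive glia markers (9 of 9 above 0, 5 called) summed to 167 to 301 FPKM in Unc119-/- and 90.3 to 96.8 FPKM in Unc119+/+ libraries. Microglia and macrophage markers (11 of 11 above 0, 1 called) summed to 66.3 to 81.2 FPKM in Unc119-/- and 43.0 to 46.7 FPKM in Unc119+/+ libraries, and the 8 cone markers (2 above 0, 0 called) to 815 to 861 FPKM in Unc119-/- and 862 to 928 FPKM in Unc119+/+ libraries. The part of these lists in the values below was not tested. In whole retina, fewer cells of a type and less RNA per cell cannot be told apart.

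No member of the ER stress response passed the test between the genotypes. All 33 members passed the filter of a mean of at least 0.5 FPKM over the 6 libraries, and 0 were called higher and 0 lower (limma on log2(FPKM + 1), two-sided, Benjamini-Hochberg adjusted p under 0.05 over 14176 genes), where 0.233% of all genes tested were called. At an unadjusted p under 0.05 there were also 0 members, against 9.00% of all genes tested. The lowest adjusted p of a member was 0.573, that of Atf4. On the log2(FPKM + 1) scale the members' changes ran from −0.22 to 0.13 with a median of 0.01, against a median of 0.00 over all genes tested, and 18 were above and 15 below 0. The median size of change regardless of sign was 0.05 for the members, 0.08 for all genes tested, and 0.07 for the 9944 genes of at least 5 FPKM.

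A p that misses the threshold does not show that the genotypes were alike, so the intervals are given as bounds. For 32 of the 33 members the 95% interval of the log2 change lay within 0.5 of 0, that is between 29.3% lower and 41.4% higher on the scale of FPKM + 1. For 25 members it lay within 0.3, and for 10 within 0.2. The exception at 0.5 was Derl3, a derlin measured near 1 FPKM, whose interval ran from −0.66 to 0.33. With a pseudocount of 0.1 the interval lay within 0.5 for 30 members, Chac1 and Trib3 being exceptions as well. Without 1 library it did so for 28 to 30 members. A change inside a member's own interval cannot be told from the spread of 3 libraries per genotype.

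**Figure D2:**
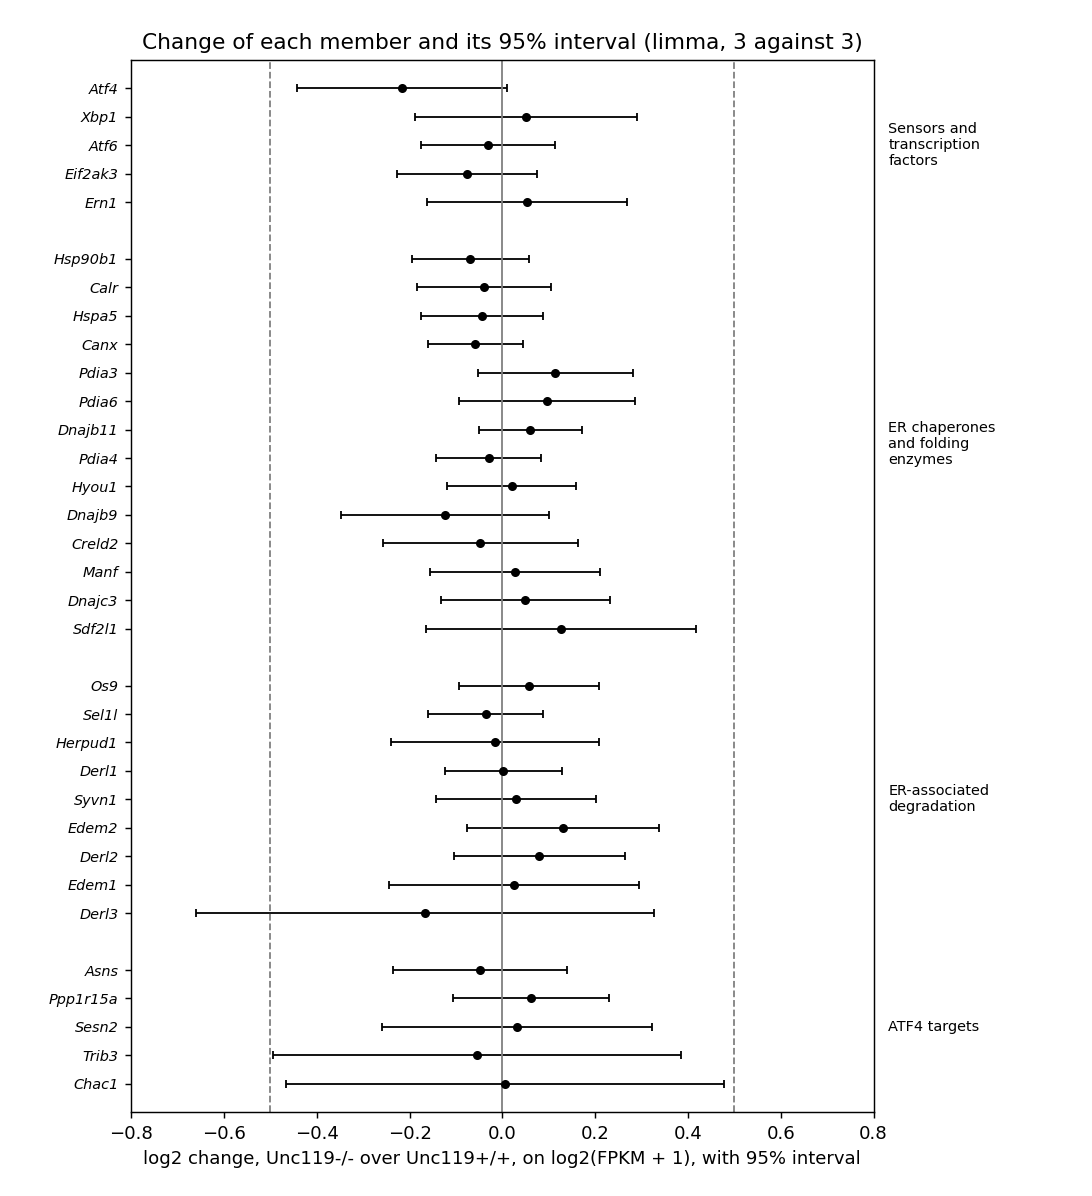
Log2 change of each member, Unc119-/- over Unc119+/+ (dots, on log2(FPKM + 1)), with its 95% interval from limma (bars); dashed lines mark a change of 0.5 in either direction. Each interval includes 0, and that of Derl3 alone crosses a dashed line.

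The genotypes overlapped for 32 of the 33 members. The remaining one was Dnajb11, an ER-resident cochaperone of BiP, picked out after its values were seen. It stood at 36.3, 38.8 and 37.0 FPKM in Unc119-/- libraries and at 36.1, 36.1 and 35.02 FPKM in Unc119+/+ libraries (log2 change 0.06, 95% interval −0.05 to 0.17, adjusted p = 0.721). Each Unc119-/- library was above each Unc119+/+ library. Over all genes tested 15.9% did not overlap (7.83% higher and 8.04% lower), so 1 member of 33 (3.03%) is a share below that background. Dnajb11 overlaps the antisense gene Gm30505, listed at a mean of 0.0283 FPKM in Unc119-/- and at 0 in Unc119+/+ libraries.

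Levels of the members spanned over 2 orders of magnitude per unit of transcript length, with the most abundant carrying most of the RNA. Atf4 averaged 216 ± 25.4 FPKM in Unc119-/- and 250.4 ± 25.02 FPKM in Unc119+/+ libraries (SD, n = 3 each). Next came Hsp90b1, which encodes the ER form of HSP90 (204 ± 3.61 FPKM in Unc119-/- and 214 ± 14.2 FPKM in Unc119+/+ libraries), and Calr, the lectin chaperone calreticulin (204 ± 13.2 FPKM in Unc119-/- and 210.0 ± 11.99 FPKM in Unc119+/+ libraries). Hspa5 and Canx, the membrane-bound lectin chaperone calnexin, followed, Hspa5 at 106 ± 6.40 FPKM in Unc119-/- and 109.3 ± 4.44 FPKM in Unc119+/+ libraries and Canx at 105 ± 2.69 FPKM in Unc119-/- and 109.6 ± 3.81 FPKM in Unc119+/+ libraries. In Unc119-/- library 3 Atf4 (191 FPKM) was below both Hsp90b1 and Calr. In Unc119+/+ libraries it was above both throughout. The order of these 3 genes in Unc119-/- libraries, that of Hsp90b1 and Calr in Unc119+/+ libraries, and that of Hspa5 and Canx could not be told from the spread between libraries. These 5 genes, each with a mean of at least 100 FPKM, made up 61.7% of the summed FPKM of the members. There were 21 members between 10 and 100 FPKM and 7 under 10 FPKM, of which Derl3 and Chac1 were under 2 FPKM.

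**Figure D3:**
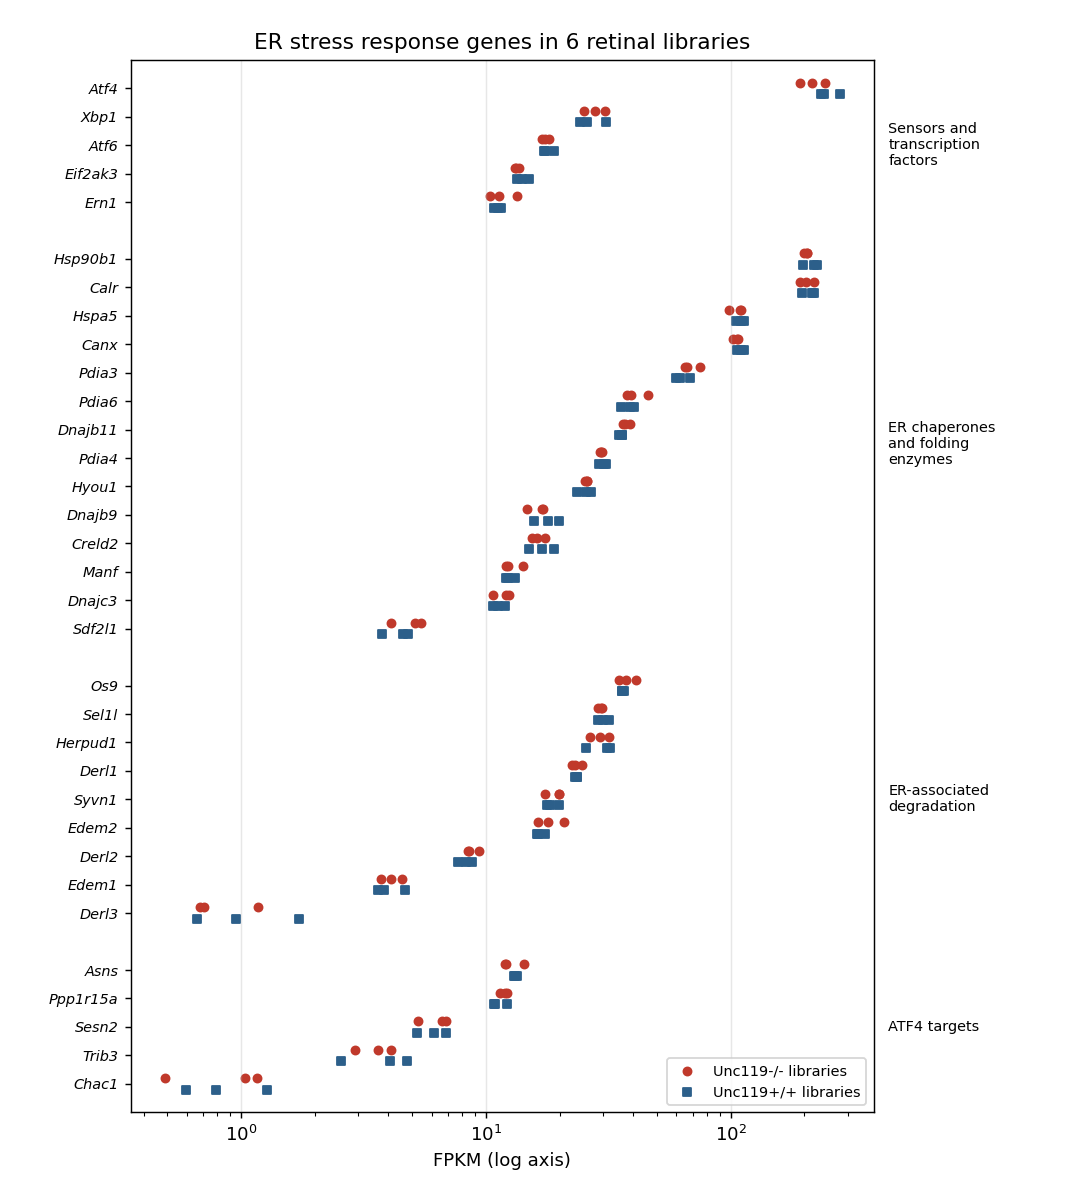
FPKM of the 33 members (log axis) in the 3 Unc119-/- libraries (red dots, upper of each pair) and the 3 Unc119+/+ libraries (blue squares, lower), by role and in order of mean level. Points of the genotypes lie among each other for each member except Dnajb11, and Derl3, Trib3 and Chac1 scatter most.

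Spread between libraries was small for most members. The coefficient of variation over all 6 libraries had a median of 6.51% for the members, against 9.07% for all genes tested, and ran from 2.61% for Pdia4, a disulfide isomerase, to 42.2% for Derl3. A mean of at least 5 FPKM was reached by 28 of the 33 members and by 9944 of the 14176 genes tested. Spread was not compared at matched level.

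Among the sensors and transcription factors, 5 of 5 were tested and 0 passed. Atf4 (chr15:80255184-80257541, plus strand) had the lowest unadjusted p of the members. It measured 214, 242 and 191 FPKM in Unc119-/- libraries 1 to 3, against 233, 279 and 239 FPKM in Unc119+/+ libraries 1 to 3 (log2 change −0.22, SE 0.10, 95% interval −0.44 to 0.01, unadjusted p = 0.0585, adjusted p = 0.573). Unc119-/- libraries 1 and 3 were below each Unc119+/+ library, while Unc119-/- library 2 lay between Unc119+/+ libraries 3 and 2. The log2 difference was −0.13 without Unc119-/- library 3 and −0.14 without Unc119+/+ library 2, so either of these libraries moves it by more than 1.5 times. It was −0.25 within males (1 Unc119-/- against 2 Unc119+/+ libraries) and −0.15 within females (2 Unc119-/- against 1 Unc119+/+ library), with sex read from Xist and Y-linked genes and too few libraries in each sex for a test.

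Xbp1 (chr11:5520659-5525893, plus strand), whose mRNA IRE1 splices, measured 28.0, 30.7 and 25.1 FPKM in Unc119-/- libraries, against 24.2, 25.9 and 30.9 FPKM in Unc119+/+ libraries (log2 change 0.05, 95% interval −0.19 to 0.29, adjusted p = 0.903). The genotypes overlapped throughout, and spliced and unspliced Xbp1 are summed in these values. Ern1, the gene of IRE1 alpha, measured 11.4, 10.4 and 13.3 FPKM in Unc119-/- and 11.6, 10.8 and 11.2 FPKM in Unc119+/+ libraries (log2 change 0.05, 95% interval −0.16 to 0.27). Its highest value was in Unc119-/- library 3, with the other five libraries close together.

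Eif2ak3, the gene of PERK, measured 13.3, 13.1 and 13.7 FPKM in Unc119-/- and 13.4, 15.04 and 14.05 FPKM in Unc119+/+ libraries (log2 change −0.08, 95% interval −0.23 to 0.08, adjusted p = 0.744). Atf6 measured 17.0, 18.1 and 17.4 FPKM in Unc119-/- and 19.0, 17.3 and 17.4 FPKM in Unc119+/+ libraries (log2 change −0.03, 95% interval −0.17 to 0.11). Both genes thus had overlapping genotypes, with Unc119+/+ library 2 highest for Eif2ak3 and Unc119+/+ library 1 highest for Atf6.

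Among the 14 ER chaperones and folding enzymes, 0 passed, 7 were above and 7 below 0, and the median log2 change was 0.00. Hspa5 (chr2:34771970-34777547, plus strand), the ERSE-bearing gene most used as a readout of ER stress, measured 98.7, 109.3 and 110.2 FPKM in Unc119-/- libraries, against 109.7, 104.7 and 114 FPKM in Unc119+/+ libraries (log2 change −0.04, 95% interval −0.18 to 0.09, adjusted p = 0.836). Unc119-/- library 1 was the lowest and the other five lay within 104.7 to 114 FPKM. Hsp90b1, with a pair of ERSE matches, measured 206, 199 and 206 FPKM in Unc119-/- and 225, 198 and 219 FPKM in Unc119+/+ libraries (log2 change −0.07, 95% interval −0.20 to 0.06, adjusted p = 0.721). Unc119+/+ library 2 was below each Unc119-/- library while the other two Unc119+/+ libraries were above them. Without that library the log2 change was −0.12 (unadjusted p = 0.0283, adjusted p = 0.505), and without Unc119+/+ library 1 it was −0.03 (unadjusted p = 0.596). Hsp90b1 shares 4598 bases with 1810014B01Rik on the opposite strand (4.89 FPKM in Unc119-/- and 5.38 FPKM in Unc119+/+ libraries), and the strand setting of the counting was not given in the sources used here.

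Canx measured 102, 108 and 106 FPKM in Unc119-/- and 113, 106 and 109.9 FPKM in Unc119+/+ libraries (log2 change −0.06, 95% interval −0.16 to 0.05), with Unc119+/+ library 2 inside the Unc119-/- range. Dnajb9, a BiP cochaperone and target of XBP1, measured 14.7, 17.0 and 17.0 FPKM in Unc119-/- and 19.9, 17.9 and 15.7 FPKM in Unc119+/+ libraries (log2 change −0.12, 95% interval −0.35 to 0.10, adjusted p = 0.719). Unc119-/- library 1 was lowest and Unc119+/+ library 1 highest. The log2 change was −0.06 without the first of these and −0.05 without the second, −0.21 without Unc119+/+ library 3 and −0.23 with a term for lens RNA.

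Pdia3, the disulfide isomerase that works with calnexin and calreticulin, measured 64.8, 66.1 and 75.0 FPKM in Unc119-/- libraries 1 to 3, against 68.0, 59.6 and 62.2 FPKM in Unc119+/+ libraries 1 to 3 (log2 change 0.11, 95% interval −0.05 to 0.28, adjusted p = 0.667). Pdia6, another disulfide isomerase, measured 37.8, 39.3 and 46.1 FPKM in Unc119-/- and 40.3, 35.8 and 38.6 FPKM in Unc119+/+ libraries (log2 change 0.10, 95% interval −0.09 to 0.29). Both were highest in Unc119-/- library 3, the library with the most lens RNA. Without it the log2 changes were 0.05 for Pdia3 and 0.01 for Pdia6. In a fit with a term for lens RNA they were 0.06 and 0.03.

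The other 8 chaperones and cofactors were Calr, Pdia4, Manf, Creld2, Sdf2l1, Hyou1, Dnajc3 and Dnajb11, the last described above. Their log2 changes ran from −0.05 for Creld2, a secreted ER stress marker, to 0.13 for Sdf2l1, a BiP-associated factor at 4.90 ± 0.702 FPKM in Unc119-/- and 4.40 ± 0.546 FPKM in Unc119+/+ libraries (SD, n = 3 each). Hyou1, the large ER chaperone and exchange factor of BiP, had 25.7 ± 0.345 FPKM in Unc119-/- and 25.3 ± 1.67 FPKM in Unc119+/+ libraries. Manf, a secreted factor retained in the ER until stress, had 12.8 ± 1.15 FPKM in Unc119-/- and 12.5 ± 0.577 FPKM in Unc119+/+ libraries. Manf shares 6511 bases on the same strand with Rbm15b, so its reads may be split with that gene.

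The ER-associated degradation genes, which pull misfolded proteins out of the ER for the proteasome, also held 0 of 9 calls, with 6 above and 3 below 0 and a median log2 change of 0.03. Edem2, a lectin-like mannosidase protein that marks misfolded glycoproteins, measured 20.9, 18.02 and 16.4 FPKM in Unc119-/- and 16.2, 17.4 and 16.3 FPKM in Unc119+/+ libraries (log2 change 0.13, 95% interval −0.08 to 0.34, adjusted p = 0.692). Unc119-/- libraries 1 and 2 were above each Unc119+/+ library and Unc119-/- library 3 was among them. Without Unc119-/- library 3 the log2 change was 0.21 (unadjusted p = 0.0379, adjusted p = 0.644), and without Unc119-/- library 1 it was 0.04 (unadjusted p = 0.602), so its size depends on which of these libraries is kept.

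Os9, a lectin that hands glycoproteins to the ubiquitin ligase, measured 34.8, 37.3 and 41.2 FPKM in Unc119-/- and 36.1, 36.6 and 36.0 FPKM in Unc119+/+ libraries (log2 change 0.06, 95% interval −0.09 to 0.21). Its highest value was again in Unc119-/- library 3, without which the change was −0.01. Derl2, a channel-like derlin, measured 8.48, 9.35 and 8.54 FPKM in Unc119-/- and 8.80, 8.29 and 7.72 FPKM in Unc119+/+ libraries (log2 change 0.08, 95% interval −0.11 to 0.26).

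Herpud1, which carries both CARE and ERSE-II and organises the ligase complex, measured 29.2 ± 2.54 FPKM in Unc119-/- and 29.6 ± 3.44 FPKM in Unc119+/+ libraries (SD, n = 3 each). The ligase Syvn1 (HRD1) measured 19.1 ± 1.43 FPKM in Unc119-/- and 18.6 ± 1.13 FPKM in Unc119+/+ libraries. Its partner Sel1l measured 29.4 ± 0.545 FPKM in Unc119-/- and 30.2 ± 1.47 FPKM in Unc119+/+ libraries. For each of these 3 genes the genotypes overlapped. Syvn1 shares 91 bases with Mrpl49 on the opposite strand, which is more abundant (60.0 FPKM in Unc119-/- and 63.4 FPKM in Unc119+/+ libraries). Derl1 had the smallest change of the group, at 23.4 ± 1.09 FPKM in Unc119-/- and 23.4 ± 0.245 FPKM in Unc119+/+ libraries (log2 change 0.00, 95% interval −0.12 to 0.13). Edem1, a stress-induced relative of Edem2, stood at 4.12 ± 0.422 FPKM in Unc119-/- and 4.04 ± 0.548 FPKM in Unc119+/+ libraries.

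The ATF4 targets held 0 of 5 calls, with a median log2 change of 0.01. Asns, asparagine synthetase and a standard readout of ATF4, measured 14.3, 11.9 and 12.1 FPKM in Unc119-/- and 13.0, 13.2 and 13.4 FPKM in Unc119+/+ libraries (log2 change −0.05, 95% interval −0.24 to 0.14, adjusted p = 0.882). Unc119-/- library 1 was the highest and Unc119-/- library 2 the lowest. Ppp1r15a (GADD34), which directs dephosphorylation of eIF2 alpha, measured 12.2, 11.98 and 11.4 FPKM in Unc119-/- and 12.2, 10.9 and 10.8 FPKM in Unc119+/+ libraries (log2 change 0.06, 95% interval −0.11 to 0.23, adjusted p = 0.820).

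Trib3, a pseudokinase induced downstream of ATF4, measured 4.10, 3.61 and 2.93 FPKM in Unc119-/- and 4.06, 2.56 and 4.77 FPKM in Unc119+/+ libraries (log2 change −0.05, 95% interval −0.49 to 0.38). Its lowest and highest values were both in Unc119+/+ libraries. Sesn2, a stress-induced regulator of mTORC1, stood at 6.25 ± 0.865 FPKM in Unc119-/- and 6.09 ± 0.825 FPKM in Unc119+/+ libraries. Chac1, which degrades glutathione, had 1.17, 0.488 and 1.04 FPKM in Unc119-/- and 0.596, 1.27 and 0.791 FPKM in Unc119+/+ libraries. At that level the pseudocount hides change, and with a pseudocount of 0.1 the log2 change of Chac1 was 0.00 with a 95% interval of −0.94 to 0.94, and that of Derl3 −0.29 with an interval of −1.19 to 0.62. A moderate change of these low genes was therefore not detectable.

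**Figure D4:**
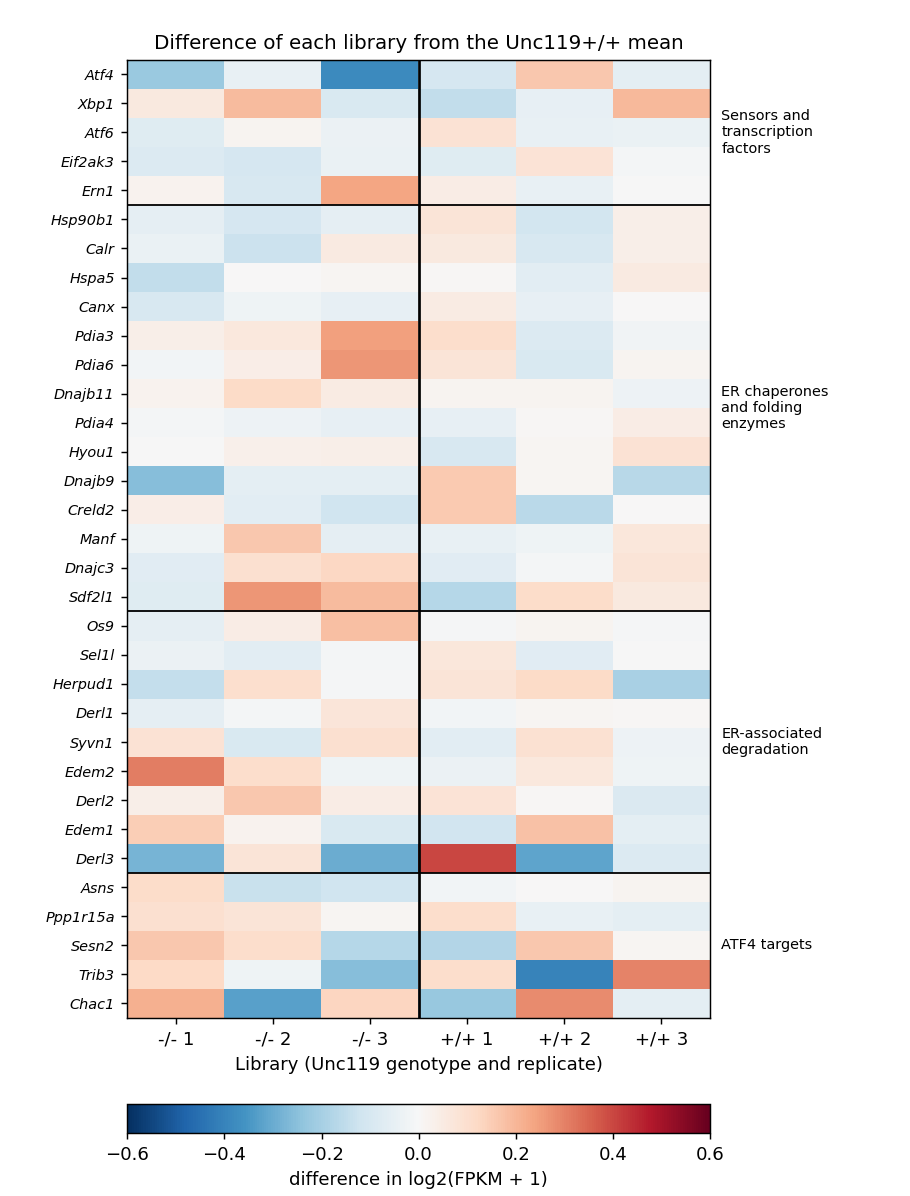
Difference of each library from the Unc119+/+ mean in log2(FPKM + 1) for the 33 members (rows, by role and level), with Unc119-/- libraries 1 to 3 left of the line and Unc119+/+ libraries 1 to 3 right of it; red is above and blue below the Unc119+/+ mean. No block of rows is of a single colour in the Unc119-/- libraries, and the deepest colours are in the low genes Derl3, Trib3 and Chac1 and in Atf4 of Unc119-/- library 3.

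The response was also read per library. The median difference of the 33 members from the Unc119+/+ mean was −0.01, 0.02 and −0.01 in Unc119-/- libraries 1 to 3, against 0.01, 0.00 and 0.00 in Unc119+/+ libraries 1 to 3 on the log2(FPKM + 1) scale. The summed FPKM of the members was 1353, 1392 and 1383 in Unc119-/- libraries, against 1435, 1408 and 1425 in Unc119+/+ libraries, so each Unc119-/- library was below each Unc119+/+ library. Without Atf4, the member of highest mean over the 6 libraries, the sums were 1140, 1150 and 1192 FPKM in Unc119-/- libraries, against 1202, 1129 and 1185 FPKM in Unc119+/+ libraries, and they overlapped. Within males the median difference of the members between genotypes was −0.01, and within females it was also −0.01.

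The members whose promoter held ERSE or ERSE-II are described by their counts, none having passed the test. Of these 11 genes 4 were above and 7 below 0, with a median log2 change of −0.04 and a range of −0.17 to 0.10. A search of all promoters found ERSE or ERSE-II for 38 other genes, of which 28 were listed and 15 tested, Ero1b among them under its older symbol Ero1lb. Of those 15, 0 were called by limma and 1 had an unadjusted p under 0.05 (Rcl1, log2 change −0.23, unadjusted p = 0.0452, adjusted p = 0.548, 8.69 FPKM in Unc119-/- and 10.3 FPKM in Unc119+/+ libraries), and their median was −0.02.

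The wider pathway was read from 152 further listed genes in 6 lists, chosen with earlier results of these data known. Of the 147 that passed the filter, 0 were called higher and 0 lower by limma, against 0.205% and 0.0282% of all genes tested. At an unadjusted p under 0.05 there were 15 (10.2%, against 9.00% of all genes tested), 13 of them with a change above 0 and 2 below, where all genes tested had 736 above and 540 below. The genotypes did not overlap for 26 genes in the higher and 4 in the lower direction (20.4% together, against 15.9% of all genes tested). Over all genes tested 7.83% did not overlap in the higher and 8.04% in the lower direction. The median log2 change of the 147 genes was 0.02, with 88 above and 59 below 0.

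Among other ER folding enzymes, 0 of 28 passed. Fkbp11, a prolyl isomerase of the secretory pathway, had the lowest unadjusted p of the 147 genes. It measured 2.24, 2.75 and 2.42 FPKM in Unc119-/- and 1.22, 1.40 and 1.74 FPKM in Unc119+/+ libraries (log2 change 0.50, 95% interval 0.20 to 0.81, adjusted p = 0.327), each Unc119-/- library being above each Unc119+/+ library. Pdia5, a disulfide isomerase, measured 17.0, 17.9 and 16.6 FPKM in Unc119-/- and 19.4, 19.4 and 20.1 FPKM in Unc119+/+ libraries (log2 change −0.19, 95% interval −0.32 to −0.05, adjusted p = 0.423), and its genotypes did not overlap. The most abundant of the list, P4hb (protein disulfide isomerase), had 87.6 ± 4.26 FPKM in Unc119-/- and 86.0 ± 1.97 FPKM in Unc119+/+ libraries.

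For ER entry and glycosylation 0 of 26 passed. Sec62, a subunit of the translocon, had 42.8 ± 1.16 FPKM in Unc119-/- and 47.4 ± 1.47 FPKM in Unc119+/+ libraries (log2 change −0.15, adjusted p = 0.453). Ddost, a subunit of the oligosaccharyltransferase, had 27.2 ± 0.992 FPKM in Unc119-/- and 24.7 ± 0.974 FPKM in Unc119+/+ libraries (log2 change 0.13, adjusted p = 0.536). Ganab, glucosidase II alpha and the most abundant of the list, had 65.2 ± 2.67 FPKM in Unc119-/- and 66.5 ± 0.817 FPKM in Unc119+/+ libraries. In the further degradation genes 0 of 26 passed. The lowest p there was of Selk, an ER selenoprotein, at 81.2, 83.4 and 85.4 FPKM in Unc119-/- and 72.9, 74.6 and 76.4 FPKM in Unc119+/+ libraries (log2 change 0.16, 95% interval 0.06 to 0.26, adjusted p = 0.369). Vimp, the selenoprotein that recruits the ATPase p97, had 30.6 ± 1.996 FPKM in Unc119-/- and 27.2 ± 2.30 FPKM in Unc119+/+ libraries, and p97 itself (Vcp) had 136 ± 8.56 FPKM in Unc119-/- and 134 ± 2.09 FPKM in Unc119+/+ libraries.

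Among further sensors 0 of 19 passed. Eif2ak1, the heme-regulated eIF2 alpha kinase, had 14.3, 13.1 and 13.5 FPKM in Unc119-/- and 10.7, 12.6 and 11.2 FPKM in Unc119+/+ libraries (log2 change 0.23, 95% interval 0.05 to 0.41, adjusted p = 0.474). Ppp1r15b, the constitutive eIF2 alpha phosphatase subunit, had 13.7 ± 1.09 FPKM in Unc119-/- and 15.1 ± 0.941 FPKM in Unc119+/+ libraries, and Tmbim6 (Bax inhibitor 1), the most abundant, 204 ± 9.15 FPKM in Unc119-/- and 199 ± 1.37 FPKM in Unc119+/+ libraries. Of the ER-phagy receptors, which send pieces of ER to the lysosome, 0 of 8 passed. The lowest p there was of Tex264, at 51.4 ± 0.702 FPKM in Unc119-/- and 47.1 ± 0.526 FPKM in Unc119+/+ libraries (log2 change 0.12, adjusted p = 0.472). Fam134b had 8.94 ± 0.860 FPKM in Unc119-/- and 7.69 ± 0.399 FPKM in Unc119+/+ libraries, and Rtn3, the most abundant, had 199 ± 7.23 FPKM in Unc119-/- and 208 ± 2.84 FPKM in Unc119+/+ libraries.

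The further ATF4 and integrated stress response genes held 0 of 40 calls, with 29 above and 11 below 0 and a median log2 change of 0.06. Over all genes tested 49.3% were above 0, against 72.5% in this list. The list held 6 genes with an unadjusted p under 0.05 (15%, against 9.00% of all genes tested), each of them with a change above 0. Among all genes tested 736 of the 1276 at that p were above 0. In this list the genotypes did not overlap for 10 genes in the higher and 0 in the lower direction (25% of the 40). Over all genes tested the shares were 7.83% higher and 8.04% lower. Bbc3 (PUMA), a cell death gene under p53, measured 1.42, 1.36 and 1.67 FPKM in Unc119-/- and 0.643, 0.982 and 0.610 FPKM in Unc119+/+ libraries (log2 change 0.51, 95% interval 0.18 to 0.85, adjusted p = 0.389). Eif4ebp1, an inhibitor of translation, measured 1.71, 1.37 and 1.16 FPKM in Unc119-/- and 0.628, 0.799 and 0.199 FPKM in Unc119+/+ libraries (log2 change 0.66, 95% interval 0.22 to 1.10, adjusted p = 0.389). Values of both were higher in each Unc119-/- library and near the filter. With a pseudocount of 0.1 the log2 changes were 0.93 for Bbc3 and 1.37 for Eif4ebp1. The other genes with an unadjusted p under 0.05, picked out after their values were seen, also did not overlap. Log2 changes were 0.46 for Atf5 (mean 16.7 FPKM over the 6 libraries) and 0.29 for Slc3a2 (52.1 FPKM). Mars (25.6 FPKM) had 0.15 and Gpt2 (3.52 FPKM) 0.34. Their limma adjusted p ran from 0.431 to 0.504. Ddit3, likewise picked out, had 41.6 ± 6.27 FPKM in Unc119-/- and 45.1 ± 3.38 FPKM in Unc119+/+ libraries. Its genotypes overlapped (log2 change −0.12, adjusted p = 0.743). The most abundant of the list, the asparaginyl-tRNA synthetase Nars, had 68.7 ± 0.839 FPKM in Unc119-/- and 68.9 ± 2.11 FPKM in Unc119+/+ libraries.

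The 2 highest log2 changes of the wider pathway were single-library values. Nupr1, a stress-induced chromatin protein picked out after its values were seen, measured 7.53, 3.47 and 109.9 FPKM in Unc119-/- libraries 1 to 3, against 2.69, 4.70 and 4.74 FPKM in Unc119+/+ libraries. Phgdh, the first enzyme of serine synthesis and likewise picked out afterwards, measured 3.03, 4.72 and 22.3 FPKM in Unc119-/- and 2.64, 5.07 and 2.87 FPKM in Unc119+/+ libraries. Unc119-/- library 3, with 11999 FPKM of lens markers, stood far above the rest for both. Without it the log2 changes were 0.32 for Nupr1 (main value 1.71) and 0.12 for Phgdh (main value 0.88).

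**Figure D5:**
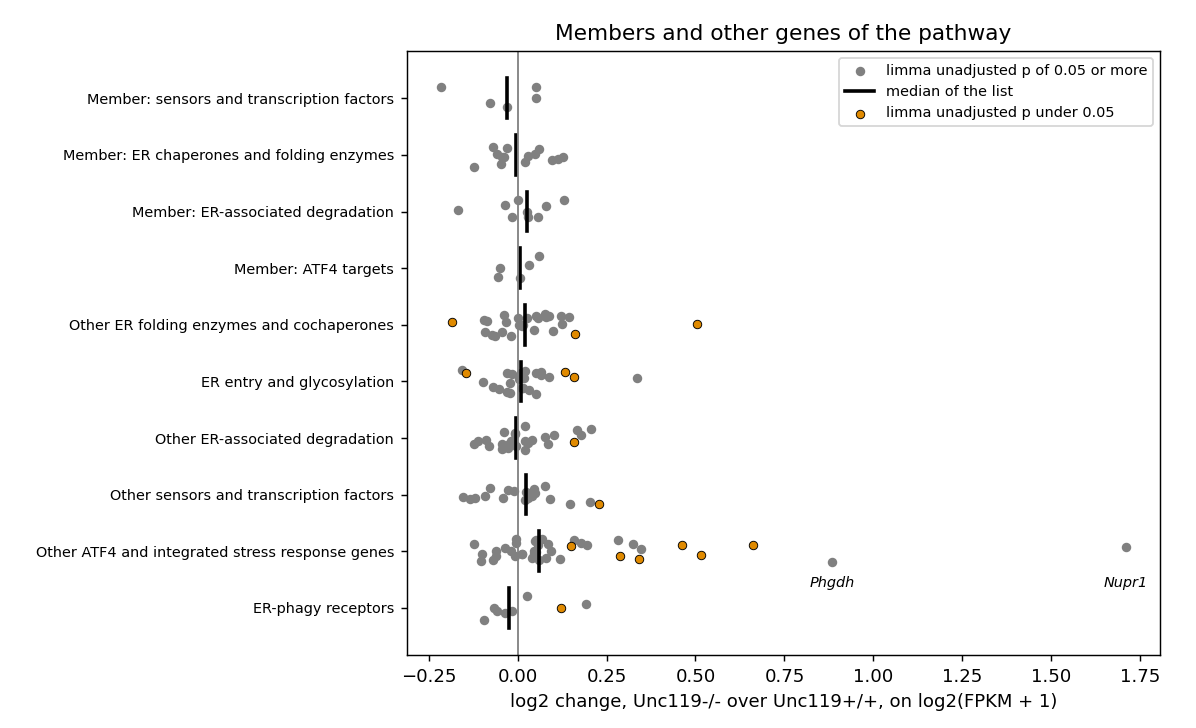
Log2 change, Unc119-/- over Unc119+/+, of each tested gene in the 4 role groups of members (top) and in 6 lists of other pathway genes (below); black bars are list medians and orange dots have an unadjusted p under 0.05 by limma. No member is orange, no gene passed after adjustment over all genes tested, and Nupr1 and Phgdh stand apart at 1.71 and 0.88.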

How the data were processed

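RNA from whole retina of 3 Unc119-/- and 3 Unc119+/+ samples was sequenced from stranded mRNA libraries, per the labels. TopHat2 2.1.1, Cuffdiff 2.2.1 and build mm10 are named in the submitters' processing notes; the annotation, strand setting and scaling between libraries were not given in the sources used here. Each library has its own table of FPKM values as deposited, per the file headers. FPKM are not counts, so absolute depth is unknown and no count model was used. Members and gene lists were chosen with earlier results of these data known. The tables were joined by symbol, genes with a mean of at least 0.5 FPKM were kept (14176), and genotypes were compared by limma 3.58.1 (R 4.3.3, two-sided, variance trend) on log2(FPKM + 1) with p-values adjusted by Benjamini-Hochberg over these genes, without pairing. The fit was tested on simulated data. For 3 against 3, an exact permutation test cannot go below p = 0.1. Values are mean ± SD, n = 3. No pair of libraries was identical, and log2 correlations ran from 0.983 to 0.993. Named in full were, per role, the 3 members of smallest p and the most abundant, with Hspa5, Xbp1, Atf4, Atf6, Ern1 and Eif2ak3, and per other list the 2 genes of smallest p and the most abundant. Ddit3 and the remaining ATF4-list genes with an unadjusted p under 0.05 (Atf5, Gpt2, Slc3a2 and Mars) were added after their values were seen. Positions came from GENCODE M21 (GRCm38, the mm10 assembly) and promoters from RefSeq (GRCm38.p6). Alternatives were another pseudocount, 2 filters, 2 scalings, a replicate block, sex and lens terms, library weights, and leaving out each library.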

Additional observations from a re-analysis of the deposited data

How the results depend on the processing

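Over 15 alternative settings 0 members and 0 of the other pathway genes were called, with a lowest adjusted p of 0.467 for a member and 0.224 for a pathway gene. Of 490 member values under these settings, 51 had a sign other than in the main result, none of them called, so no direction is claimed for any member. The median log2 change of the members was −0.0145 with quantile normalization, where the median of all genes tested was −0.02, and ran from −0.0108 (without Unc119-/- replicate 3) to 0.0265 without 1 library, the highest without Unc119+/+ replicate 2. Over all genes tested, 33 were called in the main fit, 15 with the replicate block, 19 with the sex term, 7 with the lens term, and 12 to 18 without 1 library. The cause was not tested. With the replicate block Atf4 had a log2 change of −0.22 (unadjusted p = 0.00718, adjusted p = 0.467) and no member was called. Its unadjusted p was also under 0.05 without Unc119-/- replicate 2 (log2 change −0.30) and without Unc119+/+ replicate 1 (−0.27). Same-numbered libraries of the genotypes had deviations correlated at 0.07, −0.09 and −0.12, and not every library correlated best with its own number, so the numbers were not taken as pairs. With the filter of 5 FPKM, 28 members were tested. For Derl3, Chac1 and Trib3 the low level and few libraries limit what could be seen.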
